A study of Homo sapiens with 6 samples.

Results

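The 9 genes described here belong to B-cell receptor signalling and were measured by eIF4B iCLIP, namely LYN, SYK, BTK, BLNK, PLCG2, PIK3CD, PRKCB, PTPN6 and INPP5D. They were chosen by symbol, and all 9 were listed in both cell lines, among 20973 genes in DoHH-2 and 12303 in GM01953. iCLIP, a UV cross-linking and immunoprecipitation method that resolves single nucleotides, joins a protein to the RNA it touches with UV light, and the cDNA made from the recovered RNA fragment ends beside the cross-linked base, so each cDNA counts 1 contact at a known position. The protein was immunoprecipitated with an antibody against eIF4B after partial digestion of the RNA with RNase I. DoHH-2 is a line of diffuse large B-cell lymphoma and GM01953 is a B-cell line that served as the non-cancerous control. The labels name no treatment, each group is a single cell line, and the tables pool 4 DoHH-2 replicates and 2 GM01953 replicates.

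In a B cell, antigen binding lets LYN, a SRC-family kinase at the membrane, phosphorylate the signalling chains of the receptor, and SYK docks there and becomes active. SYK phosphorylates the adaptor BLNK, on which the kinase BTK and the phospholipase PLCG2 meet, and PLCG2 then releases the diacylglycerol and calcium that activate PRKCB. PIK3CD, the catalytic subunit of PI3K delta, makes the membrane lipid that recruits BTK, whereas the phosphatases INPP5D and PTPN6 dampen the signal by removing phosphate from that lipid and from proteins. eIF4B is a translation initiation factor that aids the RNA helicase eIF4A in opening mRNA for the ribosome.

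DoHH-2 had 2033156 cDNA counts at 1179243 positions in all and GM01953 had 167197 counts at 78474 positions, a 12.2-fold difference in depth, so levels are given as counts per 1000000 counts of the same cell line (CPM), and 1 count was worth 0.492 CPM in DoHH-2 and 5.98 CPM in GM01953. With the replicates pooled there is no spread between replicates and no test. Each value below therefore carries a 95% interval for counting error alone (exact Poisson for counts, Clopper-Pearson for shares, exact conditional binomial for ratios) and leaves out the spread between replicates. cDNA counts rise both with the amount of an mRNA and with eIF4B on each copy, and these cannot be told apart here. Of 6 B-cell genes checked (MS4A1, CD79A, CD79B, PAX5, CD22 and EBF1), 5 had counts in DoHH-2, where CD22 had 0, and 6 in GM01953. They summed to 552 CPM in DoHH-2 and 1812 CPM in GM01953, a 3.28-fold difference in the same direction as that of the 9 signalling genes, with 4 of the 6 higher in GM01953 and 152 of their 303 counts there on MS4A1. The part of this difference in the results for the 9 genes was not tested. Among 5 T-cell genes there was 1 count in DoHH-2 and 0 in GM01953, and 5 myeloid genes had 0 in both.

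Together the 9 genes held 1461 counts at 1215 positions in DoHH-2 and 322 counts at 166 positions in GM01953. Their summed share of all counts was 2.68 times higher in GM01953 (95% interval 2.37 to 3.03). In 6 of the 9 genes the share was at least 2-fold higher in GM01953, beside 14.2% of the 9046 protein-coding genes with at least 20 counts over both lines. None of the 9 was at least 2-fold higher in DoHH-2, beside 24.3% of the same genes. SYK, BTK and BLNK lay within 2-fold. The median DoHH-2 to GM01953 ratio was 0.288 over the 9 genes and 1.15 over all tested genes, whose quartiles were 0.684 and 1.96. The count of 6 depended on how contacts were counted. It was 5 when each position counted once (13.2% of all tested genes) or when the highest position of each gene was left out (9.54%), INPP5D being lost both times. It was 3 (PIK3CD, PRKCB and PTPN6) when GM01953 positions were set against the positions expected in DoHH-2 at the depth of GM01953 (5.25%).

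**Figure D1:**
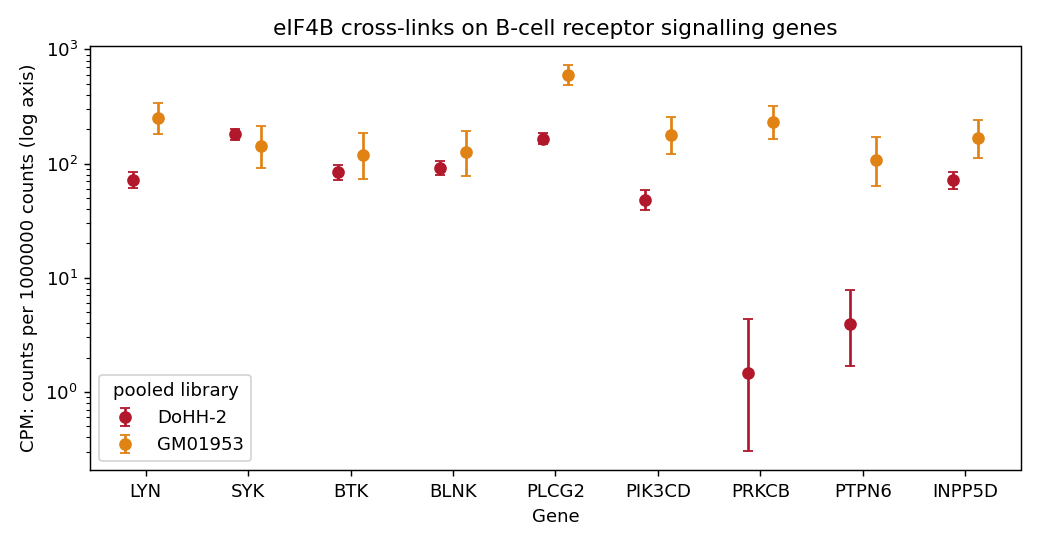
CPM (log axis) of the 9 genes in the pooled DoHH-2 (red) and GM01953 (orange) tables, with 95% Clopper-Pearson intervals for counting error. PRKCB and PTPN6 lie furthest apart, at 1.48 against 233 and 3.93 against 108 CPM, and SYK, BTK and BLNK have overlapping intervals.

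**Figure D2:**
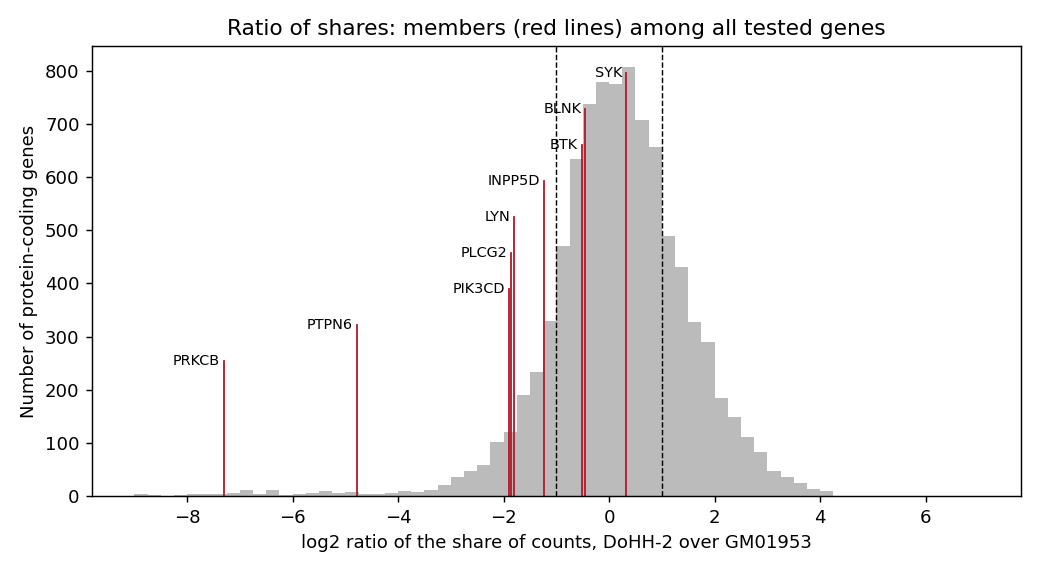
Distribution of the log2 ratio of shares (DoHH-2 over GM01953) over 9046 protein-coding genes in grey, with the 9 genes as red lines of arbitrary height and dashed lines at 2-fold either way. SYK lies near the middle of the distribution and 6 of the 9 genes lie left of the lower dashed line.

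Of the kinases next to the receptor, LYN had 147 counts in DoHH-2 (72.3 CPM, 61.1 to 85.0) and 42 in GM01953 (251 CPM, 181 to 340). Its share was 3.47 times higher in GM01953 (2.40 to 4.93), and 5.53% of tested genes had a lower DoHH-2 to GM01953 ratio. Its 3′ UTR, 68.3% of the mRNA length, held 71 of its 124 DoHH-2 mRNA counts and 14 of 35 in GM01953. Per length the stop codon region was the densest in DoHH-2, with 70.0 counts per kb (28.1 to 144) against 17.7 (13.8 to 22.3) in the 3′ UTR, and the 5′ UTR in GM01953, with 40.2 (18.4 to 76.3) against 3.49 (1.91 to 5.86). Within the 3′ UTR, the densest stretch of each line was picked from its own counts. With 14 GM01953 counts there, whether the lines differed in place cannot be told. In DoHH-2 a 50-nt window at mRNA positions 2805 to 2854 held 17 counts at 8 positions and no GM01953 count. In GM01953 9 counts fell on mRNA position 2446 alone, where DoHH-2 had 1. No count lay more than 1539 nt after the stop codon in DoHH-2 or 886 nt in GM01953, although the annotated 3′ UTR runs for 4059 nt.

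SYK, the kinase that carries the signal from the receptor into the cell, had the most counts of the 9 genes in DoHH-2. Its 366 counts there (180 CPM, 162 to 199) stood beside 24 in GM01953 (144 CPM, 92.0 to 214). The DoHH-2 to GM01953 ratio was 1.25 (0.830 to 1.98), so the interval holds 1. It was 0.512 when positions with an FDR of 0.05 or more were left out of the gene and the total, so the direction depended on that choice. Of 260 SYK mRNA counts in DoHH-2, 137 lay in the 3′ UTR and 108 in the CDS. The 3′ UTR counts ran up to 2912 nt after the stop codon, nearly the whole 2949 nt, mostly 1 count at a time. A pair of CDS positions stood out from this even cover, with 15 counts in codon 216 and 12 in codon 319. Neither they nor the 10 nt to each side had a GM01953 count. GM01953 depth was 12.2-fold lower, so 0 counts there at a position picked in DoHH-2 show no difference, here or in later genes. The windows of this CDS pair are given with that of a 3′ UTR position. It was a site (an FDR below 0.05 in the authors' tables) in both lines, with 4 counts in DoHH-2 and 2 in GM01953. In these and all later sequences the window is 21 nt of GRCh38 on the strand of the gene, 5′ to 3′, T stands for U, and the capital is the cross-linked base.
SYK, codon 216, chr9:90862263-90862283, plus strand: ggtgctgcacTatcgcatcga
SYK, codon 319, chr9:90874233-90874253, plus strand: gagtactgtgTcattcaatcc
SYK, 3′ UTR, chr9:90895666-90895686, plus strand: ggaattgattGtcagccacct

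BTK, the kinase that phosphorylates PLCG2, had the highest level per length of mRNA in both lines. DoHH-2 gave 57.9 mRNA counts per kb (48.9 to 67.9) and GM01953 7.77 (4.74 to 12.0). Its totals of 170 counts in DoHH-2 (83.6 CPM, 71.5 to 97.2) and 20 in GM01953 (120 CPM, 73.1 to 185) gave a ratio of 0.699 (0.439 to 1.17), and the interval holds 1. BTK contacts gathered near the cap. The part of the 5′ UTR more than 50 nt before the start codon held 32 of 149 mRNA counts in DoHH-2 and 5 of 20 in GM01953. In DoHH-2 31 counts at 13 positions lay within mRNA positions 17 to 66, where GM01953 had 5. The highest 5′ UTR position, mRNA position 25, had 7 counts in DoHH-2, and position 56 was a site in both lines, with 4 counts in DoHH-2 and 1 in GM01953. The highest BTK position of all in DoHH-2, with 8 counts, lay in codon 22, and the highest in GM01953, with 5, in codon 149. Neither position had a count in the other line, although DoHH-2 had 1 within 10 nt of the latter. The windows show the 5′ UTR positions of that cluster and the highest position of each line.
BTK, 5′ UTR, highest, chrX:101386157-101386177, minus strand: ctctggactgTaagaatatgt
BTK, 5′ UTR, shared, chrX:101386126-101386146, minus strand: agtgtctgctGcgatcgagtc
BTK, codon 22, DoHH-2, chrX:101375210-101375230, minus strand: aaaacatcacCtctaaacttc
BTK, codon 149, GM01953, chrX:101362626-101362646, minus strand: cttctggatcGatgggcagta

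BLNK, the adaptor on which BTK and PLCG2 meet, had 187 counts in DoHH-2 (92.0 CPM, 79.3 to 106) and 21 in GM01953 (126 CPM, 77.8 to 192), a ratio of 0.732 (0.465 to 1.21). No BLNK position in DoHH-2 had more than 2 counts. The region within 50 nt of the start codon was nonetheless the densest in both lines. It held 19 of 106 mRNA counts in DoHH-2 and 10 of 15 in GM01953, and the remaining 5 GM01953 mRNA counts lay in the 5′ UTR before it. The GM01953 counts in this region fell within 50 nt at mRNA positions 105 to 154, where DoHH-2 had 17. Its highest GM01953 position, with 5 counts, was mRNA position 124, between positions 123 and 125 that were sites in both lines. After the stop codon, 21 DoHH-2 counts all lay within 258 nt of a 3′ UTR of 2802 nt, and GM01953 had 0. The window of the highest GM01953 position, which takes in both shared sites, reads as follows.
BLNK, start codon region, chr10:96271436-96271456, minus strand: ggaactgctgAcgtgaccact

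PLCG2, the phospholipase, had 337 counts in DoHH-2 (166 CPM, 149 to 184) and 100 in GM01953 (598 CPM, 487 to 727), the most of the 9 genes in GM01953. Its share was 3.61 times higher in GM01953 (2.86 to 4.52). The highest PLCG2 positions of both lines were the same adjacent bases and were not on the mRNA. They lay before the start of the MANE Select transcript (the reference transcript of each gene). The authors' tables list these positions under a second gene as well, and they lie outside PLCG2 in GENCODE v44. The 2 positions had 16 and 12 counts in DoHH-2 and 17 and 12 in GM01953. With their neighbouring positions they held 31 counts, 9.20% of PLCG2, in DoHH-2, and 29 counts, 29.0%, in GM01953. Without these PLCG2 had 306 and 71 counts, and its share was 2.82 times higher in GM01953 (2.15 to 3.66). On the mRNA the highest position, with 7 counts in DoHH-2 and 0 in GM01953, lay in the CDS, and its window is shown as the highest single position on that mRNA.
PLCG2, codon 1052, chr16:81937851-81937871, plus strand: acccgatgccAcccgagtccc

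On the PLCG2 mRNA the CDS held 108 of 163 counts in DoHH-2 and 16 of 31 in GM01953. Of the 44 DoHH-2 counts after the stop codon, 33 lay within 500 nt, and the other 11 were spread over the rest of a 3′ UTR of 4687 nt. The 10 GM01953 counts there all lay within 213 nt. The densest 50-nt window in DoHH-2 was in this first part of the 3′ UTR, with 11 counts at 10 positions, where GM01953 had 2.

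PIK3CD, the lipid kinase, had 98 counts in DoHH-2 (48.2 CPM, 39.1 to 58.7) and 30 in GM01953 (179 CPM, 121 to 256). Its share was 3.72 times higher in GM01953 (2.39 to 5.65). In DoHH-2 the counts were scattered, 82 of 89 positions having a single count, and 33 of 63 mRNA counts lay in the 3′ UTR. In GM01953 12 of 22 lay in the CDS, and 6 of these fell on 1 base of codon 377, at which DoHH-2 had 1 count.
PIK3CD, codon 377, chr1:9718792-9718812, plus strand: gcggctggagTtcgacatcaa

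PRKCB, the protein kinase C that links the receptor to NF-kappaB, showed the widest difference of the 9 genes. DoHH-2 had 3 counts (1.48 CPM, 0.304 to 4.31), all in introns, and GM01953 had 39 (233 CPM, 166 to 319). The share was 158 times higher in GM01953 (50.3 to 800). With a count of 0 set to 3, 25 of the 9046 tested genes had a lower DoHH-2 to GM01953 ratio. Genes with 0 DoHH-2 counts and no more GM01953 counts than PRKCB, such as CD22 with 27, are not among these 25. On the mRNA DoHH-2 had 0 counts and GM01953 had 18, or 108 CPM, and among exonic counts alone the 95% interval of the GM01953 to DoHH-2 ratio began at 59.4. GM01953 had 9 of these in the CDS and 6 in the 3′ UTR. The other 21 GM01953 counts lay in introns at 9 positions, and 12 of them at the pair shown, with 7 and 5 counts, which were the highest PRKCB positions.
PRKCB, intron, 7 counts, chr16:24103678-24103698, plus strand: aacagttagtTtttcaatcct
PRKCB, intron, 5 counts, chr16:24130440-24130460, plus strand: ctcagaatgtCtctttgttcc

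Both phosphatases were also higher in GM01953. PTPN6, which removes phosphate from tyrosines of receptor complexes, had 8 counts in DoHH-2 (3.93 CPM, 1.70 to 7.75), at 8 separate positions of which 0 were sites. In GM01953 it had 18 counts (108 CPM, 63.8 to 170), and its share was 27.4 times higher there (11.3 to 72.7). Of the 8 DoHH-2 counts 6 lay outside the MANE Select span, and within it the share was 109 times higher in GM01953 (26.2 to 973), on 2 and 18 counts. Only 2 of the DoHH-2 counts lay on the mRNA, against 11 in GM01953, and no PTPN6 position was shared. The highest GM01953 position, with 6 counts, lay in an exon of another PTPN6 transcript.
PTPN6, exon of another transcript, chr12:6951905-6951925, plus strand: cacccaggacCtcagccgatc

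INPP5D, which removes a phosphate from the lipid that PIK3CD makes, differed least of the 6. It had 145 counts in DoHH-2 (71.3 CPM, 60.2 to 83.9) and 28 in GM01953 (167 CPM, 111 to 242), so its share was 2.35 times higher in GM01953 (1.51 to 3.54), and the interval reaches below 2. The CDS held 57 of 79 mRNA counts in DoHH-2 and 14 of 17 in GM01953. The highest GM01953 position on the mRNA, with 5 counts in codon 910, had 0 at the same base in DoHH-2 and 2 within 10 nt.
INPP5D, codon 910, chr2:233198119-233198139, plus strand: catcactgaaAtcatcaaccc

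The order of the genes by mRNA counts per kb was not the same as that by counts. In DoHH-2 it ran BTK 57.9, SYK 52.3, BLNK 24.4, LYN 21.1, PLCG2 18.8, INPP5D 16.1, PIK3CD 11.6, PTPN6 0.926 and PRKCB 0. Between neighbours in this order the interval of the ratio left out 1 for SYK over BLNK (2.14, 1.70 to 2.71) and for PIK3CD over PTPN6 (12.6, 3.34 to 106), and the other neighbours did not differ beyond counting error. In GM01953 the order ran BTK 7.77, LYN 5.96, PTPN6 5.09, PIK3CD 4.07, PLCG2 3.58, INPP5D 3.47, BLNK 3.45, SYK 3.42 and PRKCB 2.25, and no neighbours differed beyond counting error. Only neighbours were compared, so these ratios do not sort the genes into groups of like level. In DoHH-2 the intervals of BLNK and PIK3CD, both between the 2 steps, did not overlap. The GM01953 levels rested on 11 (PTPN6) to 35 (LYN) mRNA counts per gene. The interval of BTK over LYN there reached 2.32, so a step as large as that of SYK over BLNK in DoHH-2 could have been missed. The GM01953 intervals of BTK and PRKCB, first and last in the order, did not overlap.

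A gene was called bound when more than 20 of its counts lay at sites. By this rule 6 of the 9 genes were bound in DoHH-2 (SYK, BTK, LYN, BLNK, PLCG2 and INPP5D), beside 32.9% of 12661 coding genes with a count. In GM01953 3 were bound (LYN, PLCG2 and PRKCB), beside 8.35% of 9747. LYN and PLCG2 were bound in both. BLNK with 19 site counts, PIK3CD with 19, SYK and BTK with 18 and INPP5D with 17 lay just under the limit in GM01953, so that 8 of the 9 passed when the limit was 10, beside 21% of coding genes, and PLCG2 alone passed at a limit of 50, beside 1.93%. Sites held 27.8% of the counts of the 9 genes in DoHH-2, against 48.3% over coding genes, and 74.2% in GM01953, against 66.1%. Most DoHH-2 positions of the 9 genes, 90.7%, had a single count, and 59.6% did in GM01953, against 83.9% and 60.8% over all positions.

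Along the mRNA the 9 genes summed to 946 counts in DoHH-2 and 186 in GM01953. The CDS took the largest part in both, 49.0% (45.8 to 52.3) in DoHH-2 and 45.7% (38.4 to 53.1) in GM01953. The 5′ UTR share was 6.87% (5.34 to 8.67) in DoHH-2 and 16.7% (11.6 to 22.8) in GM01953, and the start codon share 6.24% (4.78 to 7.97) and 12.9% (8.45 to 18.6). From sites only the 5′ UTR shares were 13.0% and 17.8%, and with the longest coding transcript 4.14% and 13.4%. The 3′ UTR share was the other way round, 35.6% (32.6 to 38.8) in DoHH-2 and 24.2% (18.2 to 31.0) in GM01953, but 29.1% and 27.1% from sites only. In the 5′ UTR, start codon region and 3′ UTR all coding genes differed in the same directions. Their 5′ UTR shares were 6.64% and 11.6%, or 8.3% and 13.6% without histone genes. Start codon shares were 9.51% and 11.9%, or 9.11% and 12.5% without histone genes. For the 3′ UTR they were 25.9% and 19.5%, or 32.8% and 22.9% without histone genes. The CDS held 40.6% and 41.5% over all coding genes, or 44.3% and 45.2% without histone genes.

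Few counts of the 9 genes lay within 50 nt of the stop codon, a region that made up 1.92% of their summed mRNA length. The share of counts there was 2.22% (1.38 to 3.37) in DoHH-2 and 0.538% (0.0136 to 2.96) in GM01953. Over all coding genes it was 17.3% and 15.5%, and without histone genes 5.45% and 5.76%. BLNK with 8 and LYN with 7 held most of the 21 DoHH-2 stop codon counts, and the only GM01953 count was in SYK. Per length the start codon region was the densest in DoHH-2, at 65.6 counts per kb (49.9 to 84.6), followed by the 5′ UTR at 56.6 (43.7 to 72.2). The stop codon region had 23.3 (14.4 to 35.7), close to the CDS with 23.0 (20.9 to 25.1), and the 3′ UTR had 14.2 (12.7 to 15.8).

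**Figure D3:**
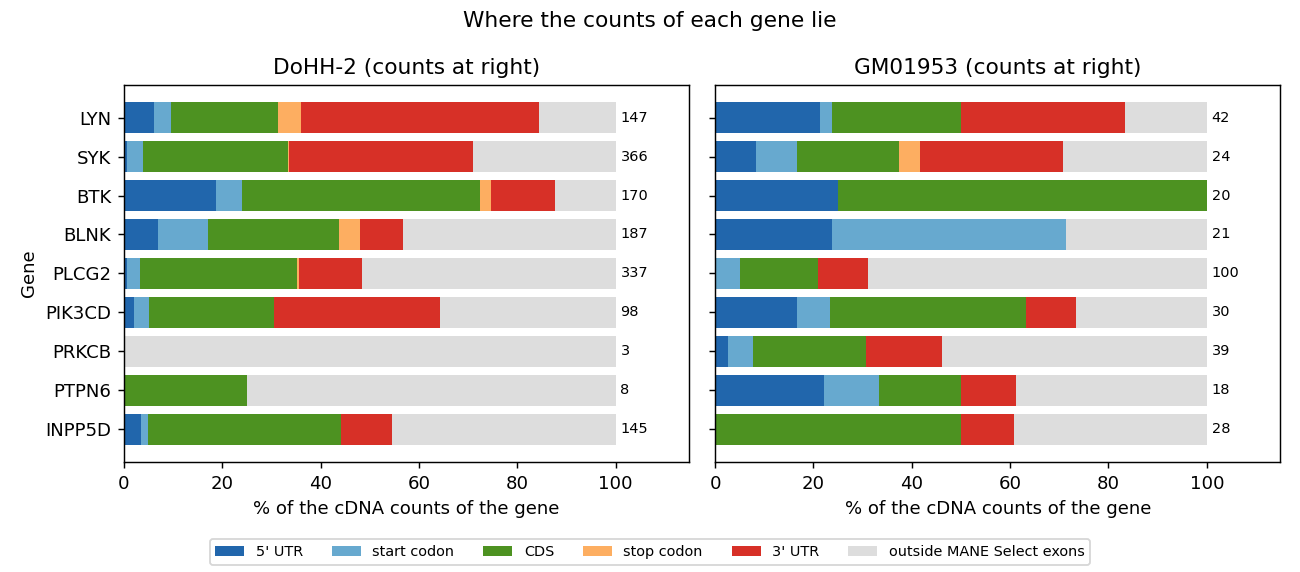
Share of the cDNA counts of each gene in 5 mRNA regions and outside the MANE Select exons, in DoHH-2 (left) and GM01953 (right), with the number of counts at the end of each bar. BTK and BLNK carry large 5′ UTR or start codon parts in both lines, LYN and SYK large 3′ UTR parts, and PLCG2 has the largest part outside the exons among genes with at least 20 counts.

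**Figure D4:**
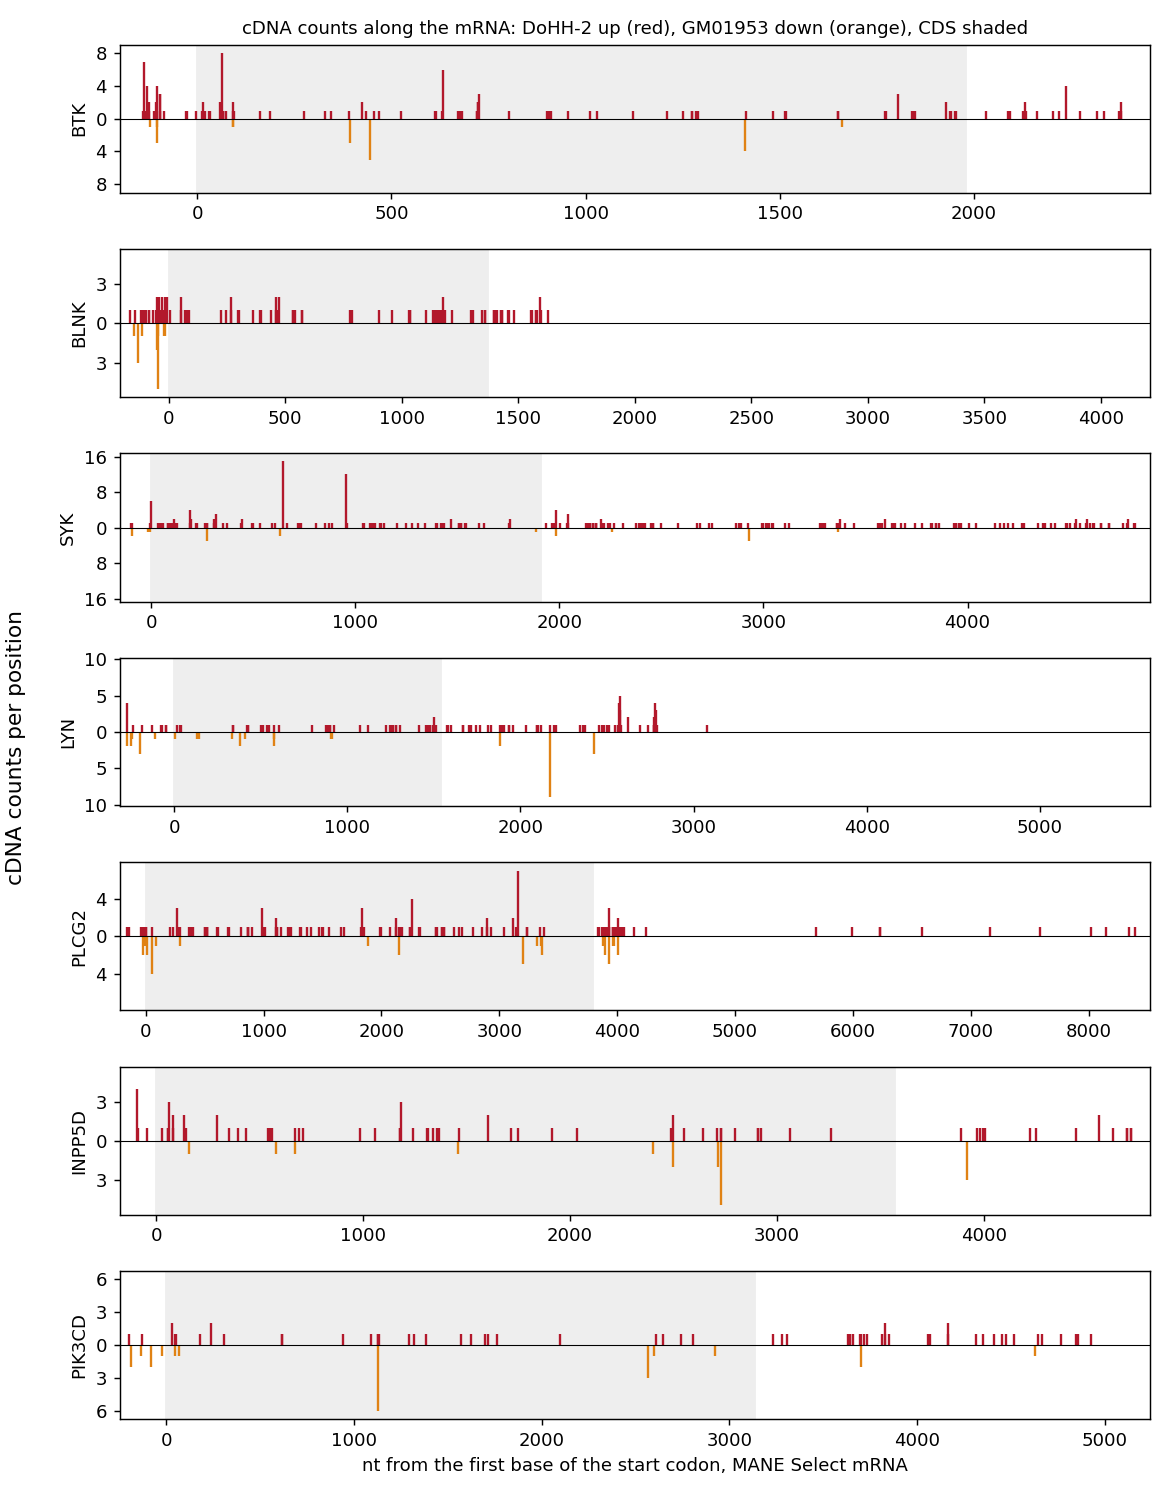
cDNA counts per position along the mRNA of 7 genes, in nt from the first base of the start codon, with DoHH-2 upward in red, GM01953 downward in orange and the CDS shaded. BTK and BLNK show counts of both lines before the start codon, and the counts of BLNK end 258 nt after the stop codon.

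Much of the signal lay outside the MANE Select exons, 35.3% (32.8 to 37.8) of the counts of the 9 genes in DoHH-2 and 42.2% (36.8 to 47.8) in GM01953, against 21.1% and 22.8% over coding genes. The coding gene values include histone genes, which held 17.9% and 12.5% of the coding counts. PLCG2 alone gave 174 of the 515 counts outside exons in DoHH-2 and 69 of 136 in GM01953. PLCG2 had the largest share outside exons among genes with at least 20 counts, 51.6% in DoHH-2 and 69.0% in GM01953, the positions before the transcript included, and 46.7% and 56.3% without the highest of these and their neighbours. BTK had the smallest, 12.4% in DoHH-2 and 0 of 20 counts in GM01953. Introns were still sparsely covered for their length. SYK had 1.16 intron counts per kb in DoHH-2 against 52.3 mRNA counts per kb, and PLCG2 0.698 against 18.8.

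Single positions seldom recurred between the lines. Of the 166 GM01953 positions 20 were also DoHH-2 positions, 12.0% of the GM01953 list and 1.65% of the DoHH-2 list, and 49 lay within 3 nt of one. Over all coding genes, histone genes included, 32.9% of 64876 GM01953 positions were also in DoHH-2. An exact match is likelier where DoHH-2 covers a gene more densely, and the 2 shares were not adjusted for that. BTK, with 7 of 9 GM01953 positions within 3 nt of a DoHH-2 position, and BLNK, with 6 of 10, shared the most for their number, and PTPN6 with 0 of 11 and PRKCB with 1 of 24 the least, on 8 and 3 DoHH-2 positions. There were 7 positions that were sites in both lines, of which 2 lay in BTK, 2 in BLNK, 1 in SYK and 2 before the PLCG2 transcript.

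The cross-linked base was U at 37.5% (34.0 to 41.0) of the 777 DoHH-2 positions on the 9 mRNAs, whose own U content was 23.7%, and A at 12.5% (10.2 to 15.0) against 27.0%. The next base was U at 44.4% (40.9 to 48.0) and G at 9.14% (7.21 to 11.4). All coding genes gave 41.2% U at the cross-linked base and 43.5% U at the next. UV light joins protein to U more readily than to other bases, and how much of this preference belongs to eIF4B was not tested. GAGAGA or AGAGAG lay within 10 nt of DoHH-2 positions in 6 of 774 windows (0.775%), against 1.33% of all windows of the same mRNAs. TTTTT was found in 5.04% against 2.51%. Over all coding genes GAGAGA or AGAGAG was in 0.755% of such DoHH-2 windows and TTTTT in 7.82%. At the GM01953 positions of the 9 genes these were in 0.935% (1 of 107 windows) and 1.87% (2 of 107 windows). In GM01953 U made up 31.5% of 108 positions. In the CDS the second codon position was hit least, at 25.1% (21.0 to 29.7) of 402 DoHH-2 positions and 15.8% (7.48 to 27.9) of 57 GM01953 positions, against 30.6% and 27.8% over all coding genes.

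Among 85 other genes of the same pathway, 83 were matched and 75 had at least 20 counts. Of these, 20 (26.7%) were at least 2-fold higher in GM01953, 10 (13.3%) at least 2-fold higher in DoHH-2 and 45 within 2-fold, and the median DoHH-2 to GM01953 ratio was 0.970. Over all 9046 tested genes 14.2% were at least 2-fold higher in GM01953 and 24.3% in DoHH-2, and the median ratio was 1.15. Within the pathway list the most counts in DoHH-2 were on the coreceptor CD81 with 659, the adaptor GRB2 with 431, the phosphatase PTPN11 with 407, the kinase PRKCE with 393 and the transcription factor NFATC1 with 331. In GM01953 they were on the membrane adaptor PAG1 with 80, the kinase AKT2 with 56, CD81 and the exchange factor VAV2 with 45 each and the receptor chain CD79A with 43.

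Close relatives of the 9 genes had ratios on both sides of 1. PTPN11, a relative of PTPN6, had a DoHH-2 to GM01953 ratio of 4.18 (2.10 to 9.76), and PRKCA, a relative of PRKCB, 6.62 (1.80 to 55.1), on 8 and 2 GM01953 counts. PRKCE had 0.788 (0.571 to 1.12). ZAP70, the T-cell relative of SYK, had 112 DoHH-2 counts and 1 in GM01953, and LCK, a relative of LYN, 4 and 19. PRKCA, ZAP70 and LCK were picked for mention after their values were seen. Among the pathway genes bound in both lines were CD81, AKT2, GRB2 and PRKCE. The limit of more than 20 site counts was passed by 38 of the 83 matched genes in DoHH-2, beside 32.9% of coding genes with a count. In GM01953 9 passed it, beside 8.35%. Only DoHH-2 passed for 33 genes, only GM01953 for 4, and neither line for 41. The limit was the same for both lines although their depth differed 12.2-fold, so 33 against 4 cannot be read as a difference in binding. Of 2922 coding genes with at least 100 DoHH-2 mRNA counts, ACLY, INSIG1 and PPIG had the spread over the 5 mRNA regions nearest to that of the 9 genes, and the fraction of counts that would have to change region was 0.0153, 0.0163 and 0.0232.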

How the data were processed

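Per the labels and the study's methods, the authors removed duplicate reads with the dedupe tool of BBMap, demultiplexed with Je, aligned to GRCh38 with HISAT2, pooled the replicates of each cell line and counted cDNAs per cross-link position with iCount; the tool versions and annotation release are not given in the sources used here. The deposited tables hold raw cDNA counts per position, strand and gene, and the authors' FDR, a p-value adjusted by iCount. The smoothed score column was not used. Positions proved to be counted from 0 and were raised by 1.

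Counts were summed over unique positions of each gene and placed on its GENCODE v44 MANE Select transcript on GRCh38, with codon regions of 50 nt to each side. Shares were taken of all counts in the table. Genes needed 20 counts over both lines for a ratio. A line at 0 was set to 3 counts for the call and for comparing ratios over all tested genes. Intervals are 95% and cover counting error only. Depth was compared by the exact expectation, without random draws. Steps were tested on simulated data. Python 3.11.15 was used with pandas 2.3.3 and scipy 1.17.1. The genes and gene lists were chosen with earlier results of these data known. The text names all 9 genes, of the pathway list the 5 with most counts in each line and those bound in both, with some items not reported here, and the 3 genes nearest in regional spread. Windows come from the 3 highest positions of each gene in each line and from sites in both lines, without LYN. No control library without antibody or size-matched input was used here. The alternatives counted sites only, exons only, unique positions, other transcripts, folds and count minimums, or left out positions and genes.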

Additional observations from a re-analysis of the deposited data

How the results depend on the processing

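The summed DoHH-2 to GM01953 ratio of the 9 genes was 0.373. It was 0.178 from sites only, 0.487 from unique positions, 0.446 without the highest position of each gene, 0.699 as GM01953-depth expected positions, 0.302 without SYK and 0.424 without PRKCB, always below 1. The 3′ UTR share in DoHH-2 was 29.1% from sites only. The share outside exons in DoHH-2 was 29.7% with the exons of every transcript and 20.4% from sites only, and in GM01953 35.4% without positions listed under several genes. Pathway genes higher in DoHH-2 numbered 19 at 1.5-fold (36.8% of all tested genes), and those higher in GM01953 12 at a minimum of 50 counts (11%). The bound genes in GM01953 numbered 8 above 10 site counts and 1 above 50 (1.93% of coding genes). For these the cause was not tested. Of 69 alternative ratios of single genes 52 stayed within their interval and 17 moved, and 0 of the called ones changed direction. The uncalled ratios of BTK and BLNK, 0.699 and 0.732, became 1.48 and 1.53 as positions expected at GM01953 depth and, at 0.460 and 0.215, passed 2-fold toward GM01953 from sites only. PTPN6 and PRKCB had no DoHH-2 count at sites and PRKCB none on its mRNA, so those ratios could not be had. Leaving out positions listed under several genes, the PLCG2 positions before its transcript or positions outside the transcript span was chosen after seeing the data. No paired analysis was possible because the tables pool the replicates of each cell line, and no replicate could be left out for the same reason.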
